A study of Mus musculus with 12 samples.

Results

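Proteoglycan core proteins and the enzymes that build their sugar chains were followed through the m6A sites that differed between cold and thermoneutral inguinal fat. The set was chosen by gene name, as every site assigned to Vcan, Dcn, Gpc3, Ext1 or Csgalnact2 in the authors' deposited tables of differential sites. It held 6 of the 739 listed sites and 5 of the 574 genes with a listed site. Because a gene could be picked only if it had a site in those tables, the folds and p-values below are the values by which the sites were selected, and they are given as a description.

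Male C57BL/6J mice of 8 weeks were housed in the cold (4 °C) or at thermoneutrality (30 °C) for 7 days, and the inguinal white adipose tissue (iWAT), a fat depot under the skin of the groin in which cold brings out beige adipocytes, was collected. MeRIP-seq was used to locate N6-methyladenosine (m6A), a methylated base of mRNA: RNA fragments bound by an antibody against m6A (m6A IP) were sequenced beside unselected fragments (input). There were 12 libraries in 4 groups of 3, cold m6A IP, cold input, thermoneutral m6A IP and thermoneutral input, and no transgene or deletion is named for these mice. The files analysed hold the outcome of the comparison and nothing per library, so no site has a value for a single library, no fold has an SD or n, and the sequencing depth is unknown.

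Proteoglycans are proteins that carry long, sulfated sugar chains of the chondroitin, dermatan, heparan or keratan type. Those of the matrix, such as versican and decorin, space and bind collagen and hyaluronan, whereas those of the cell surface, such as the glypicans, hold growth factors on heparan sulfate. Separate enzymes start and lengthen each kind of chain, and in fat much of this matrix is made by preadipocytes and other stromal cells.

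m6A is mostly placed on the A of the motif DRACH (in the standard base codes, D excludes C, R is a purine and H excludes G), and GGAC is its best known core. The following stretches from the 6 sites each hold such a motif, out of 64 DRACH in the 6 sites. The sites are 379 to 700 bp long, so they do not show which A is methylated. Each is read 5′ to 3′ on the transcribed strand of the mm10 assembly (RefSeq GRCm38.p6), as DNA letters, with 10 flanking bases on each side and the motif in capitals. All 6 GGAC of the set are given, and for the Vcan 3′ site, which held none, the DRACH nearest to its middle is given instead.
Vcan 5′ site, first GGAC, chr13:89693310-89693333, minus strand: acggagaggaGGACtgtgtaaatg
Vcan 5′ site, second GGAC, chr13:89693226-89693249, minus strand: cagtgcctaaGGACccggaagctg
Vcan 3′ site, DRACH, chr13:89689182-89689206, minus strand: ggggaagtatTGACAgatccccctg
Dcn, GGAC, chr10:97517511-97517534, plus strand: ctgccgagctGGACacccctctcg
Gpc3, GGAC, chrX:52388115-52388138, minus strand: gtgctggaacGGACaagaacttgt
Ext1, GGAC, chr15:53068720-53068743, minus strand: agatgaggctGGACccggtcctct
Csgalnact2, GGAC, chr6:118107894-118107917, minus strand: acttttaaagGGACctgctatttc

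All 6 sites were lower in cold iWAT. Among all listed sites 59.3% were lower in cold (438 of 739), and 61.1% of the genes with a site (351 of 574) had lower sites only, so the direction of the set is the more common direction in the tables. The authors' fold is the larger group over the smaller one, so for these sites it is thermoneutral over cold and a larger fold means a lower signal in cold. The 6 folds ran over a range of 4.37 to 354, with a median of 24.0, against a median of 20.9 over all 438 lower sites, whose quartiles were 7.62 and 116. The median of the set was 41.3 among sites of p at or below 1e-07, where all lower sites had 56.4, and 14.8 without folds that are whole multiples of 0.1, where all lower sites had 12.2, so whether the set or all lower sites had the larger median changed with the setting. The smallest fold listed anywhere was 4.01 and the largest FDR was 7.27e-05, so smaller changes were outside the tables. Ext1 and Dcn lay just above that limit, and the 2 Vcan sites, Gpc3 and Csgalnact2 lay well above it.

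**Figure D1:**
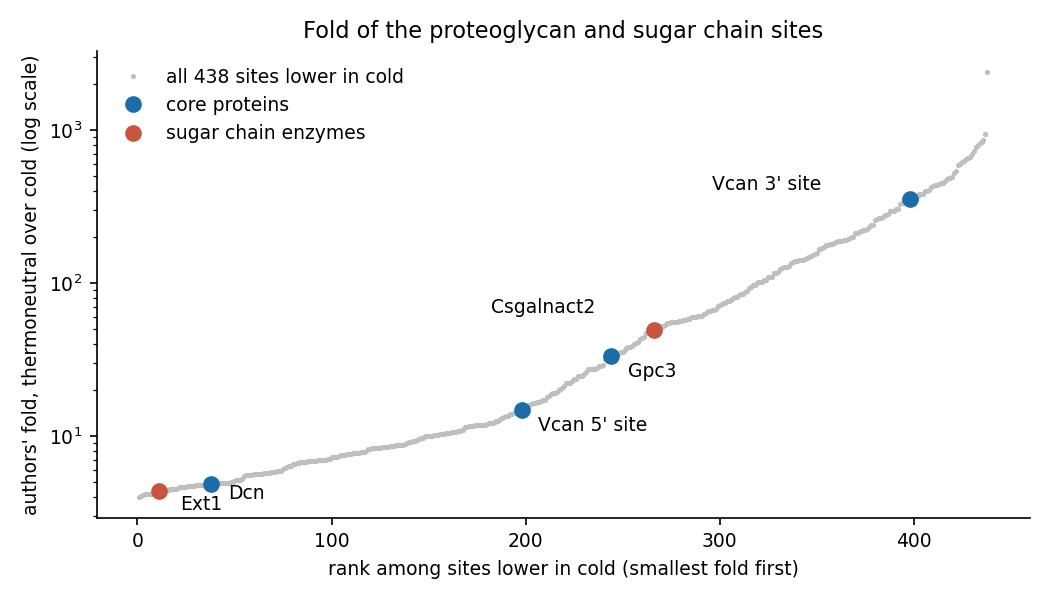
Authors' fold (thermoneutral over cold, log scale) of the 438 sites lower in cold against their rank, smallest first, with each site as a point, the core protein sites in blue and the enzyme sites in red. Ext1 (4.37) and Dcn (4.85) sit at the low end, the Vcan 5′ site (14.8), Gpc3 (33.2) and Csgalnact2 (49.3) in the middle, and the Vcan 3′ site (354) near the top.

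Vcan encodes versican, the large chondroitin sulfate proteoglycan that binds hyaluronan at its amino-terminal end. It had 2 listed sites and the other members 1 each, and 103 of the 574 genes had 2 or more. The 5′ site (chromosome 13, 89693042 to 89693420, 379 bp) was 14.8-fold lower in cold (authors' deposited table), with a diffReps p of 7.73e-08 and an FDR of 8.12e-07. The 3′ site (89688982 to 89689360, also 379 bp) was 354-fold lower, with a diffReps p of 1.90e-09 and an FDR of 1.45e-07. Of the 438 lower sites, 240 had a larger fold than the 5′ site and 40 had a larger fold than the 3′ site. The fold of the 3′ site was a whole multiple of 0.1 within 1e-06, as were 64 of the 119 lower folds of 100 or more and 73 of the 438 lower folds in all. How the authors' tool sets a ratio when a group has almost no reads is not given in the sources used here, so the size of this ratio is uncertain.

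Both Vcan sites lay in the coding sequence of 1 long exon, exon 8 of 15 in the longest transcript (Vcan-203), 3681 bp apart. That exon (89688285 to 89693501, 5217 bp) encodes 1739 residues, from 1308 to 3046, or 51.8% of the 3354 residues of the protein. It is the exon known as GAG-β, the larger of the regions to which chondroitin sulfate chains are attached at serines followed by glycine, and it held 21 of the 30 Ser-Gly pairs of the protein. The 5′ site covered bases 82 to 460 of the exon and residues 1335 to 1461, with 0 Ser-Gly pairs. The 3′ site covered bases 4142 to 4520 and residues 2689 to 2814, with 1 Ser-Gly pair. The other long exon, exon 7 (89702918 to 89705797, 2880 bp, GAG-α), held 7 Ser-Gly pairs, 79 DRACH and no listed site. DRACH stood at a similar density in both exons, 26.8 per kb in exon 8 (140 motifs) and 27.4 per kb in exon 7. GGAC stood at 2.49 per kb in exon 8 (13 motifs) and 1.74 per kb in exon 7 (5 motifs).

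Splicing of these exons gives the versican isoforms. Of 8 coding transcripts in GENCODE M21, 2 contain the sites: Vcan-203, with both long exons, and Vcan-206 (2394 residues), with exon 8 alone. Vcan-202 (1615 residues) has exon 7 alone and Vcan-201 (655 residues) has neither, so neither can carry either site. The tables do not separate isoforms, and a lower share of the isoforms with exon 8 cannot be told apart from less methylation of them. Sites in coding exons this long were uncommon: 39 of the listed sites, in 17 genes, lay in coding exons of 5000 bp or more, of which 14 were lower in cold and 15 belonged to the muscle gene Ttn.

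**Figure D2:**
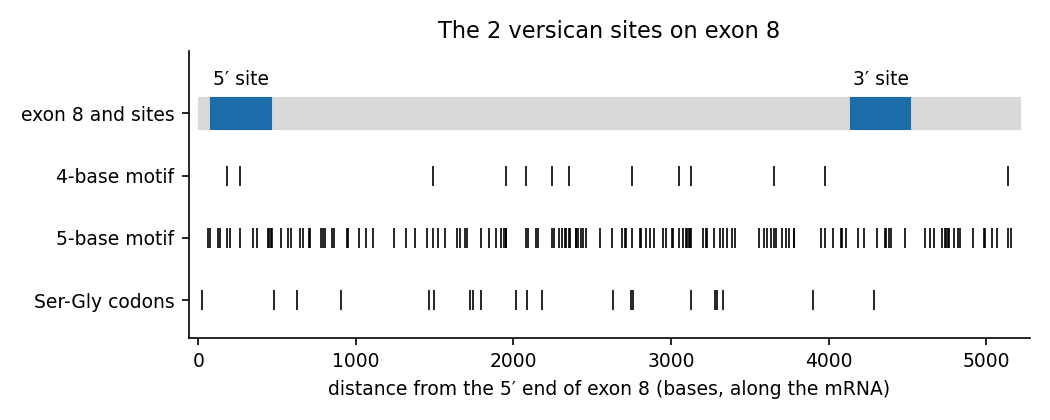
Exon 8 of Vcan in bases from its 5′ end along the mRNA, with the exon as a grey bar, the 2 listed sites as blue blocks, and ticks for the 4-base motif (GGAC), the 5-base motif (DRACH) and the Ser-Gly codons. The sites lie near opposite ends of the exon (bases 82 to 460 and 4142 to 4520), and 1 of the 21 Ser-Gly ticks falls inside a site.

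Dcn encodes decorin, a small leucine-rich proteoglycan of collagen fibrils that carries a chondroitin or dermatan sulfate chain. Its site (chromosome 10, 97517461 to 97518160, 700 bp) was the longest of the 6, and its fold of 4.85 was among the smallest: 400 of the 438 lower sites had a larger one (p 9.98e-07 and FDR 8.48e-06, diffReps, authors' deposited table). It covered the whole of exon 8 of 8 (683 bp). That exon holds the last 195 bp of coding sequence including the stop codon (residues 291 to 354) and 488 bp of 3′ UTR. A further 17 bp ran past the end of the GENCODE transcript but stopped 3 bp short of the RefSeq gene end. Its GGAC lay 132 bp before the end of the stop codon.

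Gpc3 encodes glypican 3, a heparan sulfate proteoglycan held at the cell surface by a lipid anchor. Its site (chromosome X, 52387842 to 52388220, 379 bp) was 33.2-fold lower in cold (authors' deposited table), with a diffReps p of 1.16e-08 and an FDR of 1.97e-07. Where the site lies depends on the transcript. On Gpc3-201, the longest (8 exons, 579 residues), 112 bp of it fell in exon 5 and 267 bp in the intron that follows. On Gpc3-202 (5 exons, 430 residues), in which exon 5 is the last and runs to 571 bp, the whole site was exonic, with 116 bp of coding sequence including the stop codon and 263 bp of 3′ UTR. Its GGAC then lay 21 bp before the end of the stop codon. In the tables as a whole 41 sites had their midpoint in an intron of the longest coding transcript, and 18 of these were exonic in another coding transcript. The site was assigned by the authors to 1 Gpc3 transcript, and the amount of each form was not measured here.

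Ext1 encodes exostosin 1, which with Ext2 forms the polymerase that lengthens heparan sulfate chains. Its site (chromosome 15, 53068182 to 53068849, 668 bp) had the smallest fold of the set, 4.37 (p 2.76e-06 and FDR 2.21e-05, diffReps, authors' deposited table), and 427 of the other 437 lower sites had a larger one. It began at the 5′ end of the last exon, exon 11 of 11. It held 186 bp of coding sequence including the stop codon (residues 686 to 746) and 482 bp of 3′ UTR. The GGAC lay 67 bp before the end of the stop codon. The last 79 bp of the site ran past the RefSeq gene end, within the longer 3′ UTR of the GENCODE transcript.

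Csgalnact2 encodes an N-acetylgalactosaminyltransferase that starts and extends chondroitin sulfate chains. Its site (chromosome 6, 118107882 to 118108320, 439 bp) was 49.3-fold lower in cold (authors' deposited table), with a diffReps p of 5.48e-09 and an FDR of 1.45e-07, and 172 lower sites had a larger fold. It lay wholly in the 3′ UTR, in exon 8 of 8, from 782 to 1220 bp past the stop codon. Its base composition was the most AT-rich of the set, with 27.6% G or C against 45.1% in the Ext1 site, the highest. Its GGAC lay 1197 bp past the stop codon, near the far end of the site.

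The sites of Dcn and Ext1, and that of Gpc3 on its short transcript, thus shared a layout, the end of the coding sequence and the start of the 3′ UTR in a last exon, whereas the Vcan and Csgalnact2 sites lay away from the stop codon. On the longest coding transcripts 2 of the 6 sites held the stop codon, against 197 of 727 listed sites (27.1%) that could be placed. By midpoint, 2 sites were in coding sequence, 3 in 3′ UTR and 1 in an intron, and over the listed sites 32.0% were in coding sequence, 56.0% in 3′ UTR and 5.64% in introns. The folds of the core proteins (4.85, 14.8, 33.2 and 354) overlapped those of the enzymes (4.37 and 49.3).

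**Figure D3:**
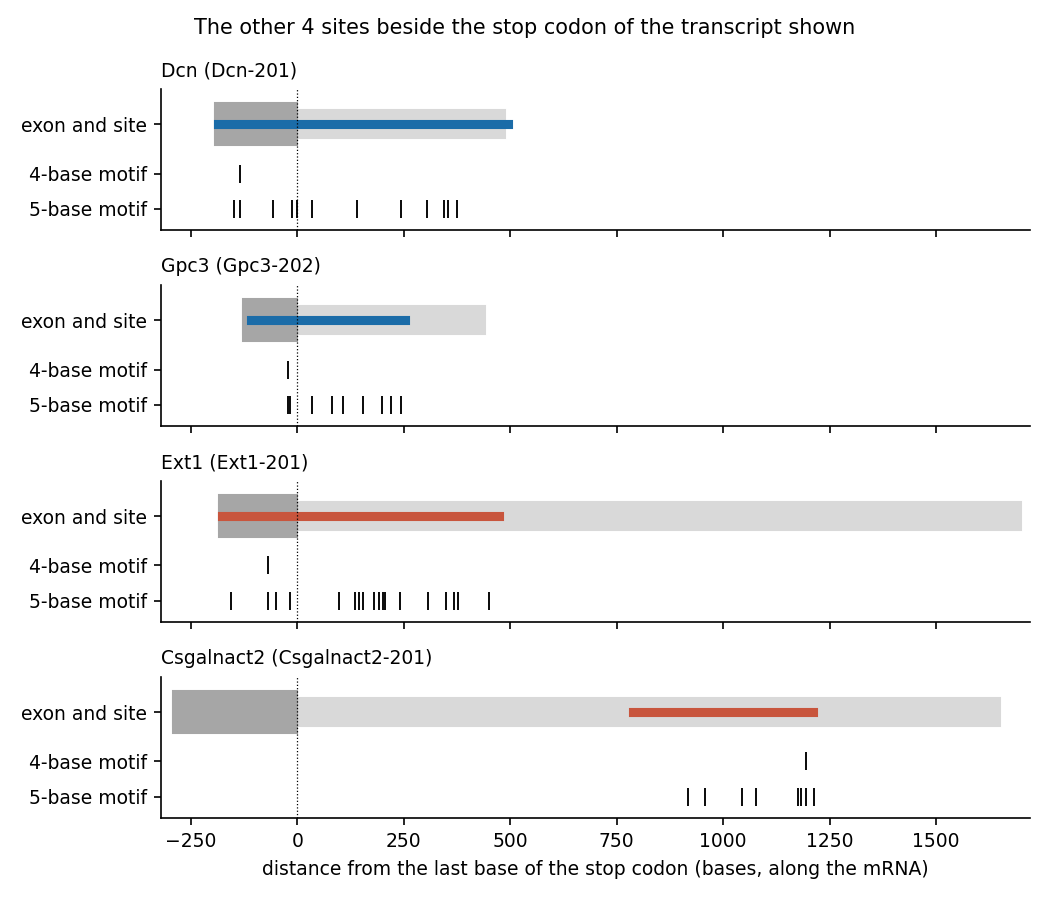
Position of the Dcn, Gpc3, Ext1 and Csgalnact2 sites in bases from the last base of the stop codon (dotted line, negative on the coding side), with coding sequence in dark grey, 3′ UTR in light grey (that of Ext1 cut off at the right), core protein sites in blue, enzyme sites in red, and ticks for the 4-base motif (GGAC) and the 5-base motif (DRACH) within each site. The Dcn and Ext1 sites span the stop codon, as does the Gpc3 site on its short transcript (Gpc3-202), the one drawn. The Csgalnact2 site begins 782 bp past the stop codon.

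The 6 sites held 6 GGAC in 2944 bp, or 2.04 per kb, against 4.43 per kb over the 731 listed sites whose strand was known and 4.28 per kb over the lower ones. DRACH, of which all 6 GGAC are also cases, stood at 21.7 per kb in the set (64 motifs) and 21.9 per kb over the listed sites. A GGAC was present in 83.3% of the set and in 83.7% of listed sites, and each of the 731 sites with a known strand held a DRACH on that strand. The median G or C content was 40.2% in the set and 48.3% over the listed sites. Of the 6 GGAC, 5 were in coding sequence and 1 in 3′ UTR, and the 64 DRACH divided into 28 in coding sequence, 29 in 3′ UTR and 7 in the Gpc3 intron.

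The wider pathway was read from 135 genes of core proteins, chain synthesis, precursor supply, hyaluronan and breakdown, of which 13 had a listed site, 10 with lower sites only and 3 with higher sites only. Without the 5 chosen genes 8 remained, 5 lower and 3 higher, or 5 of 8 beside the 61.1% of all genes with a site. Among 18 chondroitin and dermatan sulfate core proteins the third with sites was Bgn, biglycan, the close relative of decorin. Its 2 coding-sequence sites were 27.5-fold and 9.43-fold lower in cold iWAT. Among 15 heparan sulfate core proteins, Gpc4, which lies beside Gpc3 on chromosome X, stood 4.71-fold higher in cold iWAT at a coding-sequence site (52074294 to 52074640). The 2 glypicans with a site therefore went in opposite directions. Of 23 heparan sulfate enzymes and 16 chondroitin and dermatan sulfate enzymes, Ext1 and Csgalnact2 were the single genes with a site. None of 7 linker enzymes, 7 keratan sulfate core proteins or 13 hyaluronan genes had one. The share of all expressed genes with a listed site was not determined. The number of genes with a site in a list, here or below, therefore cannot be called high or low.

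In breakdown, 3 of 20 genes had sites. Adamts5 and Adamts15 encode secreted metalloproteases that cut versican and aggrecan. Adamts15 had 4 lower sites, at 369, 200.3, 34.3 and 11.7-fold, of which the fold of 369 was again a whole multiple of 0.1, and Adamts5 had 1, at 7.85-fold. Sgsh, a lysosomal enzyme that removes sulfate from heparan sulfate, was 6.01-fold higher in cold at its single site. In precursor supply, 3 of 16 genes had sites. Pgm3, an enzyme on the way to UDP-N-acetylglucosamine, was 16.1-fold lower, at a site outside its coding transcripts in GENCODE. The sulfate transporter gene Slc26a2 had a coding-sequence site that was 4.16-fold lower in cold. Ugp2, which makes UDP-glucose, had a 3′ UTR site that was 4.85-fold higher in cold.

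**Figure D4:**
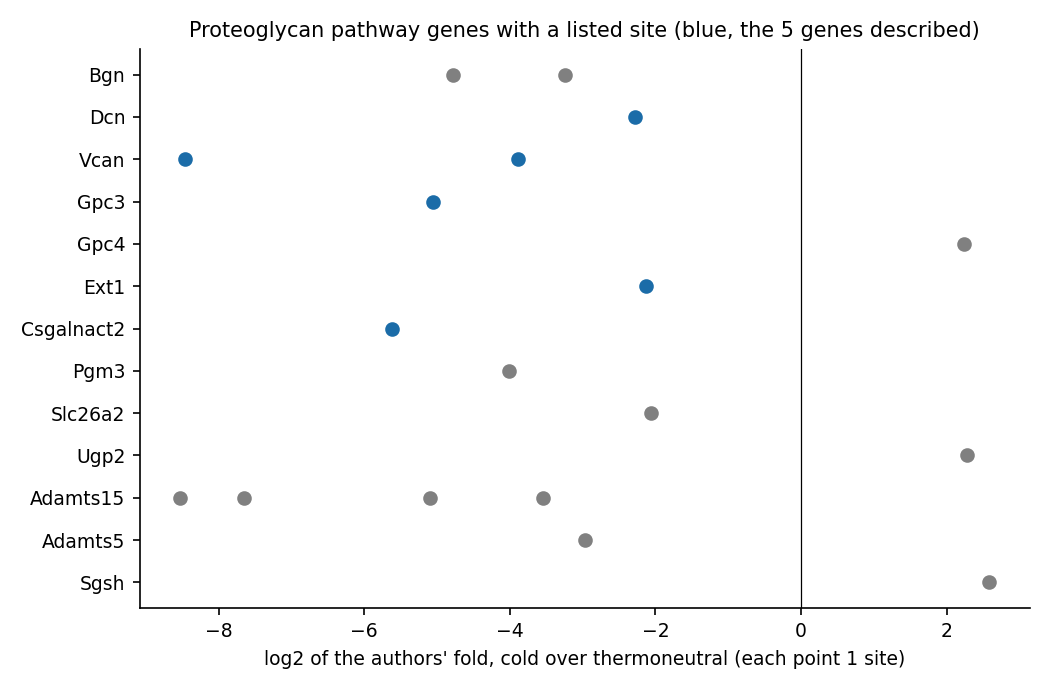
Each listed site of the proteoglycan, sugar chain, precursor and breakdown genes as a point, 1 row a gene, at the log2 of the authors' fold turned to cold over thermoneutral, so that negative values are lower in cold; the 5 chosen genes are blue and the others grey. The chosen sites run from -8.47 (Vcan 3′ site) to -2.13 (Ext1), and Gpc4, Ugp2 and Sgsh are the 3 genes to the right of 0.

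Markers of several cell types, skeletal muscle among them, moved in the same tables. Of 18 preadipocyte and fibroblast markers 6 had a site (Col3a1, Col5a1, Fbn1, Fn1, Ly6a and Prrx1), all lower in cold, and of 10 macrophage markers 4 had one (C1qa, Ccr2, Cd163 and Lyz2), also all lower. Of 12 skeletal muscle markers 8 had a site (Atp2a1, Casq1, Myh1, Myh2, Myh4, Neb, Pygm and Ttn), all higher. Of 9 beige adipocyte markers 5 had one (Cidea, Dio2, Otop1, Ppargc1a and Ucp1), all higher. Over all 574 genes with a site, 61.1% had lower sites only and 36.1% (207 genes) had higher sites only. In whole tissue, fewer cells of a type and less RNA per cell cannot be told apart. Whether the inputs entered the comparison is not stated in the sources used here, so a change in the amount of a transcript cannot be told apart from a change in its methylation. The part of the marker changes in the lower proteoglycan sites was not tested.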

How the data were processed

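MeRIP-seq libraries of iWAT were made for 3 samples per group, with groups taken from the sample titles. Per the study's methods, cutadapt trimmed the reads, Hisat2 aligned them to mm10, MACS2 called peaks and diffReps called differential sites. Bowtie 0.12.2, mm8 and mm10 are named in the submitters' processing notes. The authors deposited 1 table of higher and 1 of lower sites, with a fold per site (a linear ratio above 1), a p-value and FDR, and a score that is the −log10 of the p-value. These columns hold the authors' own comparison. They define the set and are printed as a description, with no test added.

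The group letters C and T were taken as the initials of the sample titles, cold and thermoneutral, and the beige adipocyte markers with a site were all in the higher table. Starts were read as counted from 0, because 137 of 153 starts off the 20 bp grid then fell on an exon start, against 1 if counted from 1, and a start on that grid is uncertain by 1 bp. The named gene was overlapped by 98.5% of the sites. Sites were placed by midpoint on the GENCODE M21 transcript with the longest coding sequence. Sequence came from the RefSeq GRCm38.p6 genome (pysam 0.24.0, pandas 2.3.3, Python 3.11.15). Motif and placement code was tested on simulated sequences.

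The genes and lists were chosen with earlier results of these data known. Every site of the 5 genes is given, and every pathway gene and cell type marker with a site is named.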

Additional observations from a re-analysis of the deposited data

How the results depend on the processing

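The alternatives that drop sites by fold or p leave the direction of the remaining sites as it was by construction, and 4 or 5 of the 6 sites were left under each. Of 16 alternative values, 10 were within 1.5 times the reported one and 6 moved by more. Several were set by their definition, so this tally does not measure robustness. Keeping the strongest site of each gene leaves 5 sites, dropping sites or genes can only lower a count, and DRACH is a commoner motif than GGAC. The median fold of the set was 24.0 (20.9 over all lower sites), and it was 41.3 (56.4) with sites of p at or below 1e-07 and 14.8 (12.2) without folds that are whole multiples of 0.1. Motif density was 2.04 per kb for GGAC and 21.7 per kb when DRACH was counted instead. The pathway had 10 genes with lower sites only and 3 with higher sites only, against 6 and 0 with a fold of 8 or more, 6 and 1 with p at or below 1e-07, and 5 and 3 without the chosen genes. Over all genes with a site the share with lower sites only was 61.1%, and it was 64.1% at the fold of 8 and 63.5% at the smaller p. No paired analysis was possible because the tables give no values per library, and leaving out a replicate was not possible for the same reason. Precision per site, and the depth behind it, are unknown. The tables stop at a fold of 4.01 and at an authors' FDR of 7.27e-05. A gene with no site may therefore have changed by less, or by more with a larger FDR.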

Other observations

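The authors' deposited tables also annotate each gene with KEGG pathways. The pathway of heparan sulfate synthesis was attached to 1 gene, Ext1, and that of chondroitin sulfate synthesis to 1 gene, Csgalnact2. The broader pathway of proteoglycans in cancer was attached to 17 genes, of which 14 had lower sites only (Dcn and Gpc3 among them, with the growth factor gene Igf1, its signalling partner Pik3r1, the matrix gene Fn1 and the protease gene Mmp2), 2 had higher sites only (Myc and Pik3cg) and Igf1r had both. Focal adhesion was attached to 10 genes, 6 with lower sites only, and ECM-receptor interaction to 3 genes, 2 with lower sites only. Over all 574 genes with a site 61.1% had lower sites only, and none of these pathways was tested for a difference from that share. Vcan, Ext1 and Csgalnact2 were not among the 17 genes annotated with proteoglycans in cancer.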
